A study of Mus musculus with 2 samples.

Results

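The megakaryocyte and platelet genes Gp1ba, Gp1bb, Gp5, Gp9, Itga2b, Itgb3, Pf4, Ppbp and Vwf were compared between parental Ba/F3 cells and the Ecrg4-binding clone BaF/3 (#BEB1). These 9 genes were taken by name, whatever their signal, from the 31829 gene names on the arrays, and 12 probes carried these names. The choice was made with earlier results of these data known. In these libraries 6 of the 9 genes were brighter on array B, the array that the deposited table lists as parental Ba/F3. For 3 of the 6 this direction follows from being seen on array B alone, so the count itself is not read as a result. Among 16538 genes seen on at least 1 array, 9.51% were at least 2-fold brighter on array B and 5.22% on array A. Under median scaling only 3 of the 9 genes stayed past 2-fold, Gp9, Gp1ba and Ppbp, and Gp1ba and Ppbp were seen on array B alone. Of all measured genes, 3.96% were then at least 2-fold brighter on array B and 8.86% on array A. Under the percentile scaling used for the reported values, Gp9 was 4.23-fold brighter on array B, Itga2b 2.32-fold and Pf4 2.26-fold. Before any scaling the array B signal was 3.04-fold that of array A for Gp9, 1.66-fold for Itga2b and 1.62-fold for Pf4. Itga2b and Pf4 were thus under 2-fold without scaling. Ppbp, Gp1ba and 1 of the 2 Itgb3 probes rose well above background on array B alone. Gp1bb, Gp5 and Vwf stayed at or near background in both libraries, and none of the 9 genes was brighter on array A by 2-fold.

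Platelets are released by megakaryocytes, large bone marrow cells that arise from progenitors shared with erythroid cells. Gp1ba, Gp1bb, Gp9 and Gp5 encode the glycoproteins of the GPIb-IX-V complex, the receptor with which platelets hold on to von Willebrand factor at a damaged vessel wall. Itga2b and Itgb3 encode the subunits of the integrin αIIbβ3, which binds fibrinogen and joins platelets to each other. Pf4 and Ppbp encode chemokines stored in platelet alpha-granules, and Vwf encodes von Willebrand factor, which megakaryocytes and endothelial cells make. In early progenitors Itga2b (CD41) is also switched on before the megakaryocyte lineage separates. In megakaryocytes several of these genes are known targets of the transcription factors GATA1, FLI1 and other ETS proteins. NF-E2 also acts in this lineage.

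Ba/F3 is a mouse pro-B cell line that depends on interleukin-3. Both lines were kept in the same medium with serum and recombinant mouse IL-3. BaF/3 (#BEB1) is 1 clone, which was obtained after Ba/F3 cells had received a retroviral expression library of cDNA from the rat oligodendrocyte precursor line CG4 and had been sorted repeatedly for binding to an Ecrg4–Fc fusion protein. Total RNA of each line was used, after amplification and cyanine 3 labelling, on 1 whole mouse genome array from Agilent, so there was no replicate, no test and no p-value. A difference between the arrays therefore cannot be told apart from the variation between cultures or hybridisations of the same line.

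The deposited table and the scanner output give the arrays to opposite cell lines. The column listed for BaF/3 (#BEB1) correlated at r = 0.999996 with the scanner intensities given to the parental line, and at r = 0.982 with those given to BaF/3 (#BEB1), over 39429 probes. Array A here is the one under BaF/3 (#BEB1) in the table and under the parental line in the scanner output, and array B is the other. Olr1, which encodes LOX-1, the receptor cloned from BaF/3 (#BEB1), had a log2 level of 3.11 on array A against −1.90 on array B and was thus 32.1-fold brighter on array A. That is the direction in which the study's text places LOX-1 mRNA in the clone if the table's assignment holds, but which array carried which line was not settled here. Every difference is the log2 level on array A less that on array B, so a negative value means a brighter signal on array B. Were the scanner assignment right, every sign between parental and clone would turn.

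Signals were the scanner software's background-subtracted intensities, and a level is the log2 of the signal divided by the array's 75th percentile, which was 1506 for array A and 1080 for array B. A gene was called measured where a probe was well above background on both arrays, which held for 14832 gene names. The error given for a spot is that of the scanner software's error model, which covers the array and not the biology. Probes printed at 10 spots gave a second view of this error. Their spots differed by a median SD of 0.06 (array A) and 0.05 (array B) on the log2 scale, and by 0.10 and 0.11 for the 36 such probes with signals under 300. Levels of different probes were not set against each other, since each probe has its own affinity. The summed signals given for the cell type lists do add different probes, so they mainly follow the brightest genes of a list.

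The probe sequences of the 6 genes seen on array B are shown first, since each of these genes rests on 1 spot per probe. They are all in lower case, and the letters run 5′ to 3′ on the strand of the transcript, with positions in mm9, the build of the array design. Itga2b is given in full, since its 60 bases span 209 bases of the genome and so cross an intron. Of the other probes, which lie in 1 block, the first 30 bases are given, because their place in exons or untranslated regions was not analysed here.
Gp1ba (chr11:70455461-70455520, plus strand): ggagcactatccctaaatatcatgagtatt
Gp9 (chr6:87729650-87729709, plus strand): gctgtccagtctaaagacctgggttttatc
Itga2b (chr11:102319453-102319661, minus strand): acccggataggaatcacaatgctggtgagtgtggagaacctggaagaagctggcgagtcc
Itgb3, seen on array B (chr11:104531672-104531731, plus strand): ccacagcaacatcagagtctttgtccattt
Itgb3, dim on both arrays (chr11:104528625-104528684, plus strand): acttatgtgtgtgacgagtgtggggaaatg
Pf4 (chr5:91202275-91202334, plus strand): ctggagagttaggtatcagctgcctaaatg
Ppbp (chr5:91198970-91199029, plus strand): ctggtcatgaccatgtttttccaatttctt

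The GC content of the 12 probes ran from 35% for Gp1ba to 80% for 1 of the Gp1bb probes. No spot of the 12 probes was marked as an outlier and none was saturated.

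Of the GPIb-IX-V complex, 2 of the 4 subunit genes gave a clear signal and both were brighter on array B. Gp9, which encodes the small glycoprotein IX that the complex needs to reach the cell surface, had a signal of 633 ± 63.7 on array A and 1920 ± 192 on array B (error of the scanner model, 1 spot each). The log2 difference was −2.08 ± 0.20, or 4.23-fold, larger than the error of the model. Among the 14832 measured genes, 125 lay further towards array B, which is 0.843%.

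Gp1ba, which encodes the chain of glycoprotein Ib that carries the binding site for von Willebrand factor, had a signal of 209 ± 21.9 on array B. On array A its spot was not above background and held a surrogate value of 7.88. A fold for such a probe is a lower bound, set against the higher of its own signal and the lowest signal among probes well above background on the dim array, which was 27.6 for array A and 22.9 for array B. By this bound the array B signal of Gp1ba was at least 10.6-fold brighter (log2 −3.40). Among the 916 genes well above background on array B alone, 13 had a larger bound.

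The other 2 subunit genes gave no usable level. The 3 probes of Gp1bb, the second chain of glycoprotein Ib, had signals of 11.8, 5.72 and 8.46 on array A and 5.66, 4.76 and 6.81 on array B. Gp5, which encodes glycoprotein V, had 18.8 ± 8.46 (array A) and 31.0 ± 7.32 (array B). The Gp5 spot was above background by the software's own test on both arrays but did not reach the stricter mark of being well above it. No fold is given for Gp1bb or Gp5. A signal below this mark does not show that the mRNA was absent.

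Both integrin genes were brighter on array B, with different certainty. Itga2b, the αIIb chain, had signals of 2762 ± 276 on array A and 4589 ± 459 on array B. Its levels were 0.87 and 2.09. Both lay above the 75th percentile of their array. The log2 difference was −1.21 ± 0.20, or 2.32-fold, and 671 measured genes (4.52%) lay further towards array B.

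Itgb3, the β3 chain, was measured by 2 probes that lie 3047 bases apart and disagreed. The downstream probe had a signal of 47.1 ± 6.85 on array B and a surrogate of 6.15 on array A, which makes it at least 2.38-fold brighter on array B (log2 −1.25). The upstream probe was not above background on either array, at 8.08 (array A) and 6.45 (array B). Among the 916 genes seen on array B alone, 370 had a larger bound than Itgb3, and its signal stood close to the background mark.

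The chemokine genes of the alpha-granule were also brighter on array B. Ppbp, whose product is cut into the neutrophil-attracting chemokine NAP-2, had a signal of 621 ± 62.3 on array B and 36.0 ± 8.43 on array A. On array A the spot was above background but not well above it, so its own signal set the value. After scaling, Ppbp was 24.1-fold brighter on array B (log2 −4.59 ± 0.37), which is a plain ratio and not a lower bound. In 5 of the 916 genes seen on array B alone was the bound larger.

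Pf4, platelet factor 4, was measured on both arrays, with 131 ± 14.2 for array A and 213 ± 21.8 for array B. The log2 difference was −1.18 ± 0.21, or 2.26-fold, and 734 measured genes (4.95%) lay further towards array B. At signals this low the spots of replicate probes scattered by about 0.10, so the Pf4 difference was larger than the scatter within an array, while its scatter between cultures is unknown.

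Vwf was at the floor of both arrays, with surrogate values of 5.83 on array A and 4.86 on array B. Its single probe gave no level in either line.

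**Figure D1:**
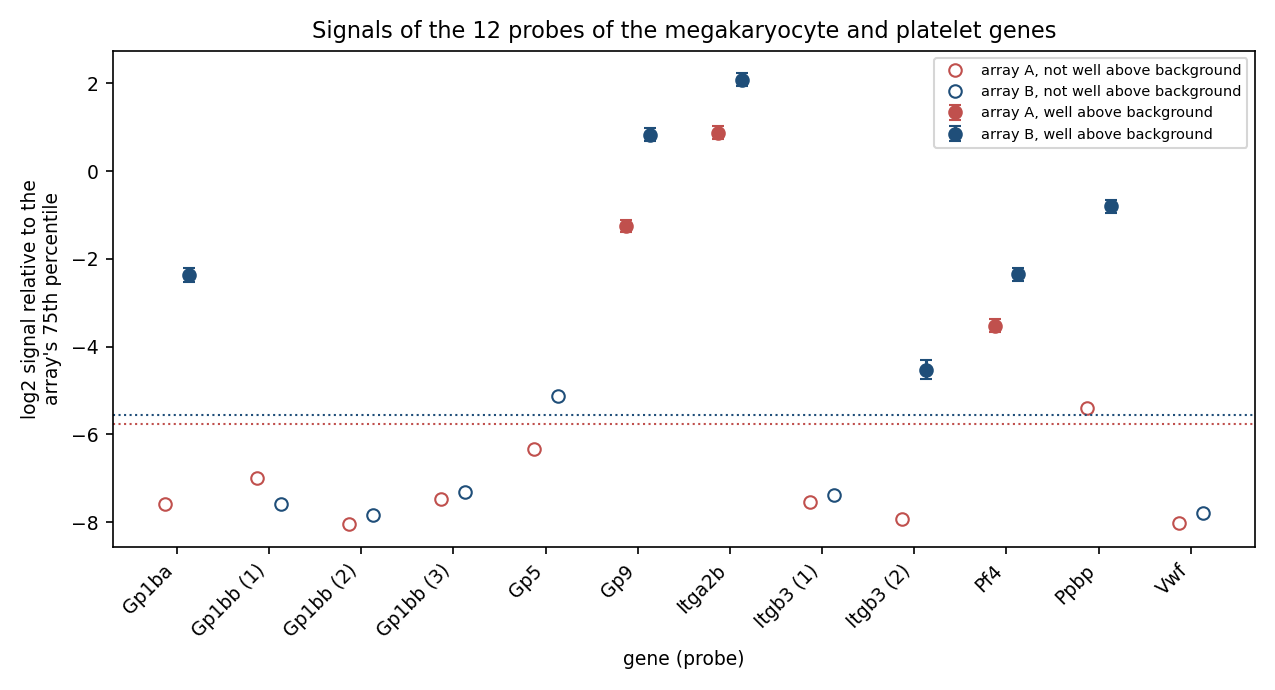
The vertical axis gives the log2 signal relative to each array's 75th percentile for the 12 probes of the 9 genes, numbered by position where a gene has several. Filled points are well above background, with bars for the scanner software's error, open points are not, and the dotted lines mark the lowest signal well above background on each array. Gp9, Itga2b and Pf4 have filled points on both arrays with array B higher, and Gp1ba, 1 Itgb3 probe and Ppbp have them on array B alone.

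In all, 3 of the 9 genes were measured on both arrays, 3 were seen on array B alone and 3 on neither. The 3 measured genes were each at least 2-fold brighter on array B and 0 on array A. Of all measured genes, 7.31% were at least 2-fold brighter on array B and 3.84% on array A. With bounds included, the 6 of the 9 genes that were seen on at least 1 array were each at least 2-fold brighter on array B. For 3 of them the direction is set by being seen on array B alone, so nothing is read from this count. Of the 16538 genes seen on at least 1 array, 9.51% were at least 2-fold brighter on array B and 5.22% on array A. The median difference of the 3 measured genes was −1.21, against −0.02 over all measured genes. No probability is attached to these counts, as the 9 genes share biology, and Pf4 and Ppbp share a chromosomal position.

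**Figure D2:**
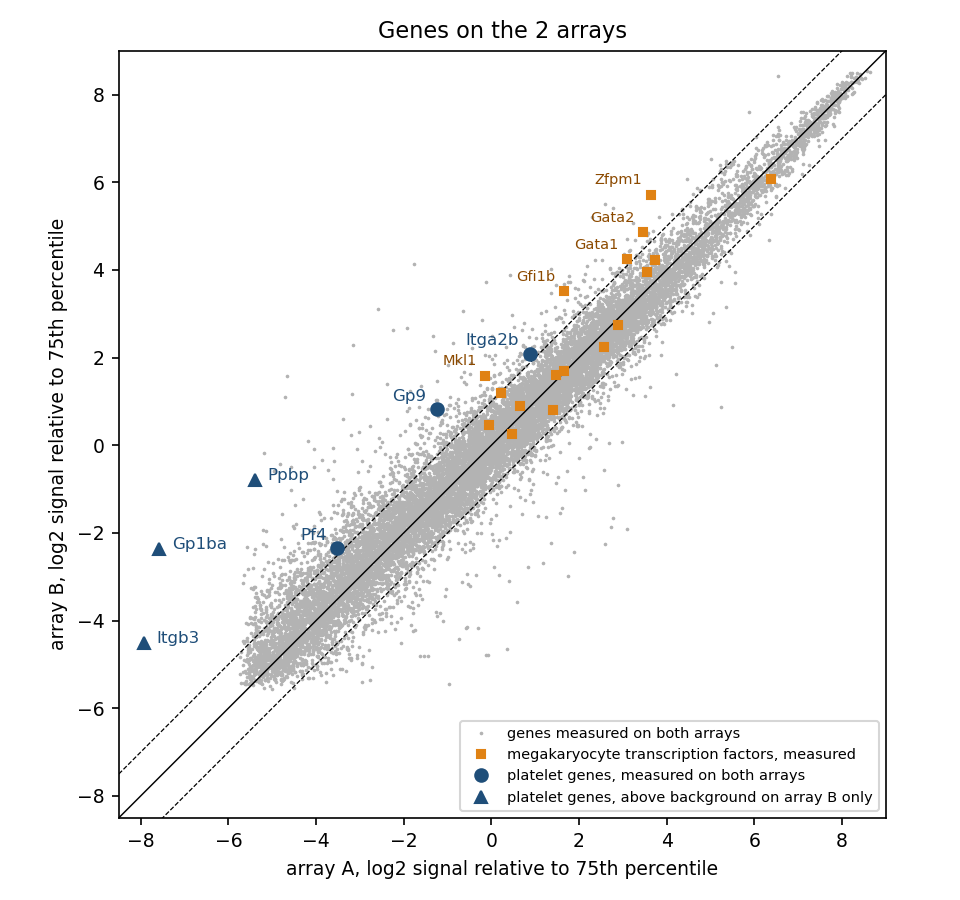
The log2 level on array B is plotted against that on array A for the 14832 measured genes (grey), with the solid line marking equal levels and the dashed lines a 2-fold difference. Gp9, Itga2b and Pf4 (circles) lie above the upper dashed line, and Ppbp, Gp1ba and Itgb3 (triangles, with array A signals that are not well above background) stand at the left edge, while of the 17 measured transcription factor genes (squares) the 5 that are named lie above it.

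How firmly each gene passed 2-fold depended on how the arrays were scaled. Gp9, Gp1ba and Ppbp were at least 2-fold brighter on array B under each of the 12 alternatives of scaling, background correction, filtering and naming, with log2 differences from −2.16 to −1.79 for Gp9, from −5.21 (against the surrogate) to −1.90 for Gp1ba and from −4.67 to −3.15 for Ppbp. Itga2b fell short under 1 of them, at −0.92 where each array was scaled to its median. Pf4 was at −0.88 under median scaling, −0.98 under quantile scaling and −0.89 after normexp background correction, and Itgb3 at −0.96, −0.99 and −0.99. Median scaling moved the median of all measured genes by 0.29 towards array A, and with it 3.96% of measured genes were at least 2-fold brighter on array B and 8.86% on array A. Gp9, Itga2b and Pf4 kept their direction under each of these alternatives. Gp1ba, Itgb3 and Ppbp did too, but where they were seen on array B alone a bound cannot change sign.

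**Figure D3:**
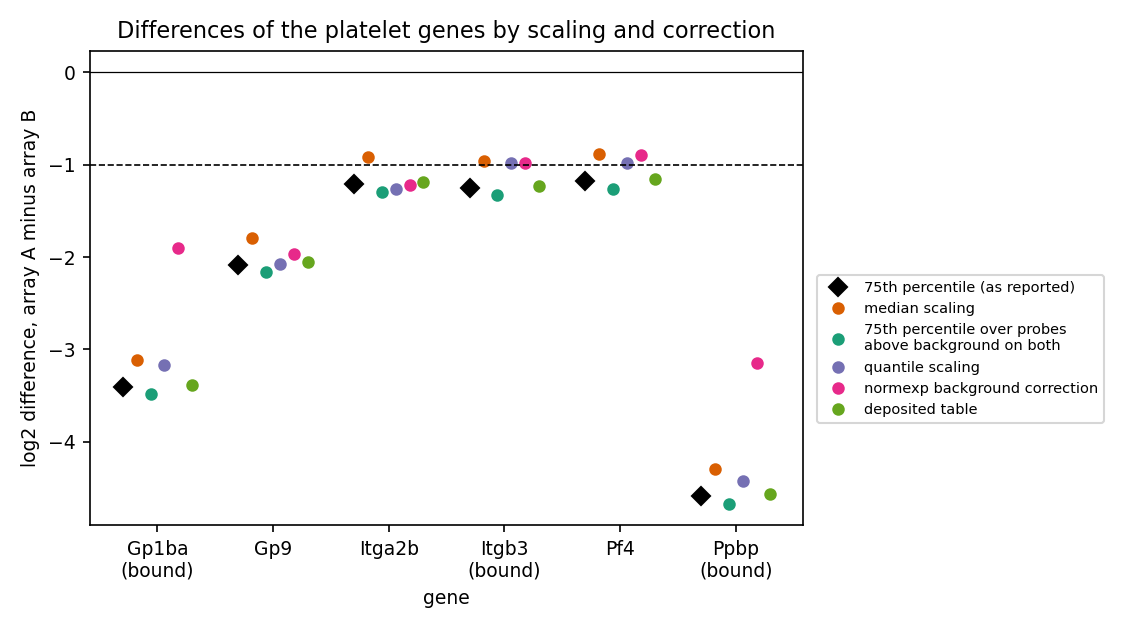
The vertical axis gives the log2 difference (A minus B) of the 6 genes seen on array B, with black diamonds for 75th percentile scaling and coloured points for 5 other treatments of the signals. Gp1ba, Gp9 and Ppbp stay beyond the dashed line at 2-fold with each of them, whereas Itga2b, Itgb3 and Pf4 lie close to it.

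Other genes of platelet adhesion and activation did not share one direction. Of 23 receptor genes outside the 9, 13 were measured, with 2 at least 2-fold brighter on array B, 1 on array A and a median difference of 0.04. P2rx1, the platelet's ATP-gated ion channel, had signals of 1358 on array A and 4479 on array B, a log2 difference of −2.20. Cd151, a tetraspanin that associates with integrins, had 511 and 761, a difference of −1.05 that fell under 2-fold with median scaling, quantile scaling, normexp correction or the brightest of its probes. F2rl2, the thrombin receptor PAR3, went the other way with 4448 and 965, a difference of 1.73. F2r, the thrombin receptor PAR1, was bright on both arrays at 177132 and 123835, a difference of 0.04. Itgav, which also pairs with the β3 chain, was at 393 and 144, a difference of 0.97 that passed 2-fold with median scaling (1.26), quantile scaling (1.13) or the brightest of its probes. The collagen receptor gene Gp6, the podoplanin receptor gene Clec1b, the ADP receptor gene P2ry12 and the thromboxane receptor gene Tbxa2r did not rise well above background in either library.

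Of 21 genes of platelet signalling and cytoskeleton, 18 were measured, with 1 at least 2-fold brighter on array A, 0 on array B and a median difference of 0.02. The 1 gene was Gp49a, a paired immune receptor gene of mast cells and other leukocytes, with signals of 3406 and 168 and a difference of 3.86. Fermt3, whose product kindlin-3 switches on the platelet integrins, had 5836 and 7682, a difference of −0.88. Myh9, the non-muscle myosin heavy chain of platelets, was at 98607 and 68843, a difference of 0.04. Tubb1, the β-tubulin of platelets, and Treml1, an alpha-granule membrane receptor, were dim in both libraries.

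The genes of alpha-granule contents and of granule formation were split. Of 21 with a probe, 12 were measured, 2 of them at least 2-fold brighter on array B and 1 on array A, and bounds added 1 gene on each side, with a median of −0.10 over the measured genes. Clu, clusterin, had signals of 1464 and 3120, a difference of −1.57, and Nbeal2, which granule formation requires, had 2046 and 3261, a difference of −1.15 that fell to −0.86 under median scaling. Thbs1, thrombospondin-1, was seen on array B alone, with 6.25 for array A and 179 for array B, and was at least 9.05-fold brighter there. F5, coagulation factor V, lay on the other side with 1179 and 138, a difference of 2.61. Selp, P-selectin, was printed at 10 spots, which ran from 257 to 315 on array A and from 149 to 166 on array B. Its log2 levels were −2.36 ± 0.09 and −2.78 ± 0.06 (SD between spots), so that the spots of the 2 arrays did not overlap while the difference was only 0.42. F13a1, the factor XIII A chain, and Mmrn1, multimerin, were not well above background.

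The transcription factors that act in megakaryocytes were mostly bright, and those past 2-fold lay on array B. Of 19 such genes 17 were measured, with 5 at least 2-fold brighter on array B, 0 on array A and a median difference of −0.39. Zfpm1, which encodes the GATA1 partner FOG1, had signals of 18773 on array A and 56675 on array B, a difference of −2.07. Gfi1b, a repressor needed for platelet formation, had 4730 and 12397, a difference of −1.87. Mkl1, a cofactor of serum response factor, had 1361 and 3243, a difference of −1.73. Gata2 was at 16552 and 31423, a difference of −1.40, and Gata1 was at 12796 and 20455, a difference of −1.16. Under median scaling Gata1 fell to −0.86 and the other 4 stayed past 2-fold.

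Fli1, the ETS factor that acts on several of the 9 genes, was at 4164 and 3289, a difference of −0.14. Nfe2, the haematopoietic subunit of NF-E2, was at 19955 and 20195 with a difference of −0.50, and Tal1 at 17743 and 16712 with −0.39. Lmo2 lay slightly on the other side at 3978 and 1875, a difference of 0.61. Meis1 and Ets1 were not well above background. Zfpm1, Gfi1b, Gata2 and Gata1 are named for passing 2-fold among the 17 measured factors, while Fli1 did not pass it and Lmo2 lay on the other side. For 3 of the 6 platelet genes seen on array B the direction is set by being seen there alone. No shared direction is therefore read from these 2 arrays, and no link between the factors and the platelet genes was tested.

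**Figure D4:**
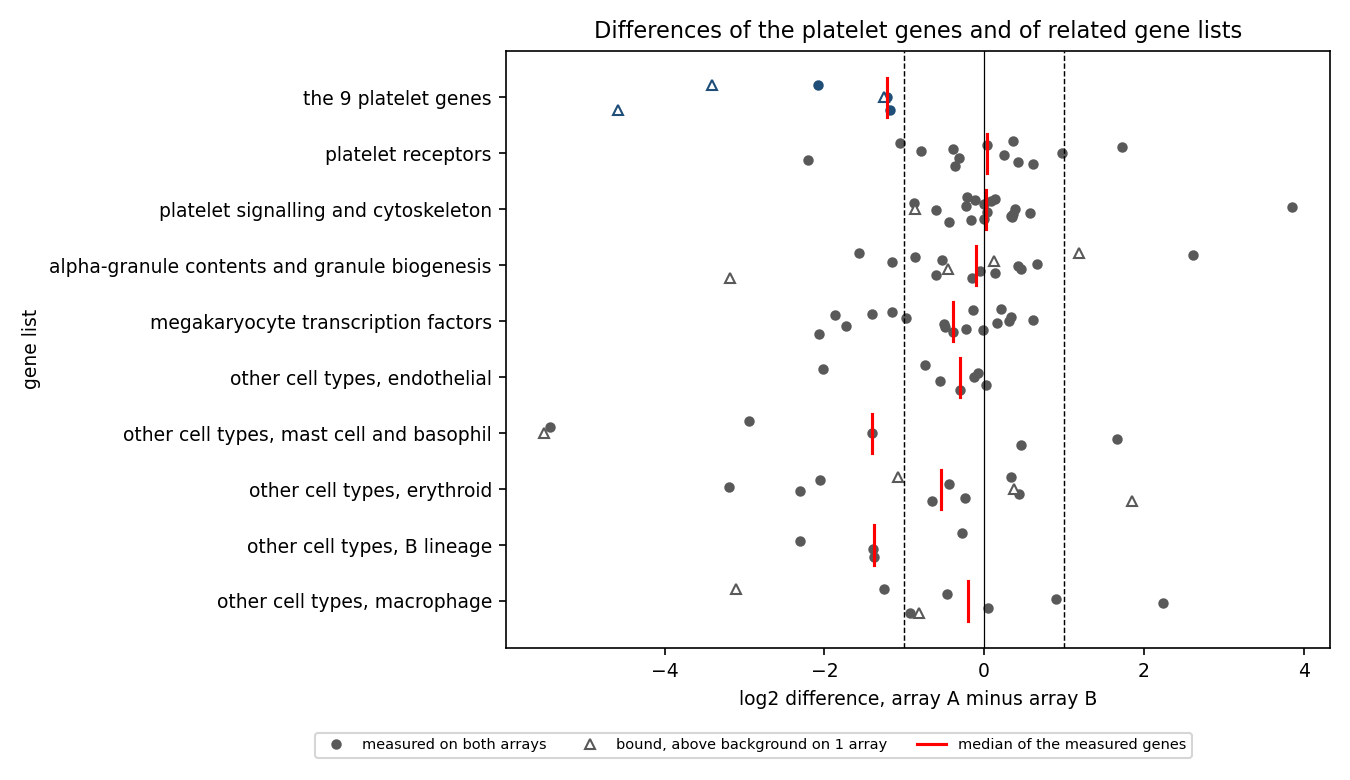
Each point is a gene, placed by its log2 difference (A minus B), with open triangles for bounds, red bars for the median of the measured genes of a list and dashed lines at 2-fold. The 9 platelet genes (top, 6 plotted) lie beyond −1, the other receptor, signalling and granule genes scatter around 0, and 5 transcription factors lie beyond −1.

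The promoters of 5 of the 6 genes that were brighter on array B are shown next, with the letters that GATA and ETS factors are known to prefer. The sequences are from RefSeq on GRCm38.p6, which differs from the build of the probes, and hold the 250 bases before the start of a transcript. Of the 9 genes, 7 had an entry. Letters searched were GATAA for GATA factors, GGAAG for ETS factors and TGCTGAG for NF-E2, on both strands, and no match overlapped another. Capitals mark GATAA or its reverse TTATC, and GGAAG or its reverse CTTCC.
Gp1ba (chr11:70638872-70639121, plus strand): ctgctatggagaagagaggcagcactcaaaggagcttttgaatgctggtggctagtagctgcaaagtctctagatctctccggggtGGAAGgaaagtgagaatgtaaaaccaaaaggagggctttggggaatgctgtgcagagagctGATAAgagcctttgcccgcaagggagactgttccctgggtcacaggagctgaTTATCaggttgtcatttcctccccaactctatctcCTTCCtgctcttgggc
Gp9 (chr6:87777820-87778069, plus strand): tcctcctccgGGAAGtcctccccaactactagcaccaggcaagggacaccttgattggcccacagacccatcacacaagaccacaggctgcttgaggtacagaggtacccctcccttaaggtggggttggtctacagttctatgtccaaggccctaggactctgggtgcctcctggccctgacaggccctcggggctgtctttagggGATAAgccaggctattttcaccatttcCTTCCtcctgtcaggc
Itga2b (chr11:102469884-102470133, minus strand): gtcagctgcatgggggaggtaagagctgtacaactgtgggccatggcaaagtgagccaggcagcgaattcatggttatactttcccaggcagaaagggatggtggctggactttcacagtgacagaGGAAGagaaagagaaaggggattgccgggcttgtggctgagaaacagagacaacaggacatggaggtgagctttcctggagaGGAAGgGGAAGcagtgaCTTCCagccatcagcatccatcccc
Ppbp (chr5:90768268-90768517, plus strand): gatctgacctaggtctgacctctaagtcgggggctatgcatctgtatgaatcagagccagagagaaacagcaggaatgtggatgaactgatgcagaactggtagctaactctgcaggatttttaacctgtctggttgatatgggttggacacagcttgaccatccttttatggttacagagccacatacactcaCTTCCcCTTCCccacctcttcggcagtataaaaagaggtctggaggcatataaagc
Pf4 (chr5:90772185-90772434, plus strand): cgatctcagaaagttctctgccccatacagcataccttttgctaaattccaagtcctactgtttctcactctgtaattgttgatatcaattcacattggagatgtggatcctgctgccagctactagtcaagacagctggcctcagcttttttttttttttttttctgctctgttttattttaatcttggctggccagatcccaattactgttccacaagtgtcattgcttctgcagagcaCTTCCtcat

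GATAA stood in 3 of the 7 promoters, with 2 matches each in Gp1ba and Gp5 and 1 in Gp9, and 22.6% of all 32851 promoters of the same length held it. In Gp1ba the matches began 103 and 51 bases before the start, and in Gp9 the match began 43 bases before it. GGAAG stood in all 7 promoters, a motif so short that 64.1% of all promoters held it, and 6 of the 7 had at least 2 matches against 29.4% of all promoters. Itga2b had 4 matches, of which 3 began within 42 bases of the start, and Pf4 had 1, which began 9 bases before it. TGCTGAG stood in none of the 7 and in 6.21% of all promoters. Gp1bb and Gp5, which were not well above background, had matches as well (2 of GGAAG each), so the letters did not separate the genes seen on array B from the others. These matches are descriptions of letters in 1 window and not of bound sites.

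Pf4 and Ppbp are neighbours in a cluster of chemokine genes on chromosome 5, and their probes lie 3305 bases apart. The genes beside them lay in both directions. Cxcl5, next to Ppbp on the other side and encoding a neutrophil chemokine, was seen on array A alone, with 72.6 on array A and 4.59 on array B, at least 2.28-fold brighter there. Cxcl2, a further neutrophil chemokine gene of the cluster, was at 86.5 on array A and at 22.0, not well above background, on array B, at least 2.71-fold brighter on array A. After normexp correction these bounds shrank to 0.56 and 0.15 on the log2 scale. Cxcl3, next to Pf4, was measured at 77.1 and 91.4, a difference of −0.73. The remaining 8 of 11 listed genes of the cluster and its edge, Cxcl1 and Cxcl15 among them, were dim in both libraries.

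**Figure D5:**
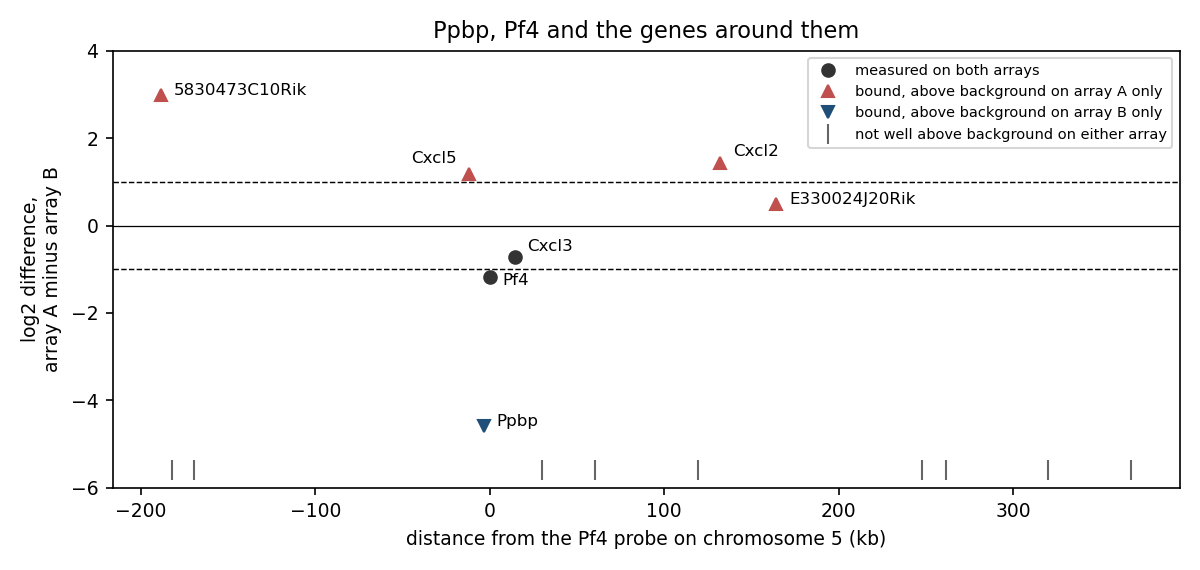
Genes are placed by the distance of their probe from the Pf4 probe in kb (horizontal) and by their log2 difference, A minus B (vertical), with dashed lines at 2-fold and ticks at the bottom for genes that are not well above background on either array. Ppbp and Pf4 lie below 0 beside Cxcl5, which was seen on array A alone, and Cxcl3 at −0.73.

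Markers of other cell types that can carry some of these genes were read on the same arrays. Endothelial cells make von Willebrand factor, and of 16 endothelial genes 7 were measured with 1 at least 2-fold brighter on array B, 0 on array A and a median of −0.31. Their signals, in units of the 75th percentile, summed to 16.5 (array A) and 26.5 (array B). Most of each sum came from the single gene Egfl7, so the sums do not describe the list. The 1 gene was Eng, endoglin, with 65.2 and 190 and a difference of −2.02. Cdh5, Tek and Tie1 stayed near background in both libraries, with signals from 4.93 to 9.49. Egfl7 was bright in both, at 20254 and 24246, a difference of −0.74. Kdr, a receptor for vascular endothelial growth factor, was at 2615 and 2743 by 1 of its 2 probes, a difference of −0.55. The other Kdr probe, printed at 10 spots, was not well above background on either array, at 6.66 (array A) and 5.60 (array B). Flt1 differed by −0.13, Plvap by −0.31 and Erg by −0.08, and Pecam1, which platelets and leukocytes also express, was at 664 and 469, a difference of 0.02.

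Mast cell and basophil genes held both directions. Of 15 genes 5 were measured, with 3 at least 2-fold brighter on array B, 1 on array A and a median of −1.40, and their summed signal was 125 for array A and 117 for array B. Most of this sum came from Srgn, a granule proteoglycan gene that many blood cells express, at 169012 on array A and 87717 on array B, a difference of 0.47. Cpa3, mast cell carboxypeptidase, was at 170 on array A and 5298 on array B, a difference of −5.44. Fcer1a, the alpha chain of the IgE receptor, was at 6.80 and 904, at least 45.7-fold brighter on array B. Cma1, a mast cell chymase, was at 40.7 and 225, a difference of −2.95, and Hdc, which makes histamine, went the other way with 2751 and 622, a difference of 1.67. Kit, Ms4a2 and Mcpt8 were not well above background. Gata2, which is on this list too, is given above.

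Erythroid genes, which share GATA1 and its partners with megakaryocytes, had their measured calls on array B. Of 16 genes with a probe 8 were measured, with 3 at least 2-fold brighter on array B, 0 on array A and a median of −0.55, and 1 bound past 2-fold on either side. Their signals summed to 5.61 (array A) and 10.5 (array B). Hba-a1, an alpha-globin gene, was at 223 and 1464, a difference of −3.20, although globin copies are nearly identical and a probe may read several. Klf1, the erythroid Krüppel-like factor, was at 625 and 2224, a difference of −2.31, and Epor, the erythropoietin receptor, at 552 and 1652, a difference of −2.06. Hbb-b1, a beta-globin gene, was seen on array A alone at 115 against 15.0, at least 3.59-fold brighter there. Alas2 was not well above background.

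Of 15 B-lineage genes with a probe 4 were measured, with 3 at least 2-fold brighter on array B, 0 on array A and a median of −1.38. Their signals summed to 0.512 (array A) and 1.77 (array B). Cd79b, a chain of the B cell receptor, was at 419 and 1480, a difference of −2.30, and the surrogate light chain gene Vpreb1 at 63.2 and 119, a difference of −1.39. The defining genes Cd79a, Pax5 and Ebf1 were likewise dim in both libraries, although the line is called pro-B.

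Of 15 macrophage genes with a probe 6 were measured, with 1 at least 2-fold brighter on each array and a median of −0.21, and 1 bound past 2-fold on array B. Their signals summed to 7.16 (array A) and 2.86 (array B). Fcgr1, the high-affinity IgG receptor, was at 7872 and 1200, a difference of 2.23. Emr1 lay on the same side at 1724 and 662, a difference of 0.90 that rose to 1.19 under median scaling. Cd68 was at 74.7 and 128, a difference of −1.26 that fell to −0.97 under median scaling and −0.87 after normexp correction. Lyz1 was at 15.9 and 170, at least 8.59-fold brighter on array B. Cd14, Mrc1 and Msr1 were not well above background. The part of any of these cell types in the differences of the 9 platelet genes was not tested, and fewer cells that express a gene cannot be told apart from less RNA in each cell.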

How the data were processed

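Each line, parental Ba/F3 and BaF/3 (#BEB1), was measured on 1 Agilent 1-colour array. The authors deposited the spot intensity of each array from Feature Extraction 9.5.1.1, which subtracts the background, corrects spatial trends and gives surrogates to spots at background. The deposited scanner output also holds a p-value per spot for equality with background, which was used through the software's marks only. The authors also deposited a log2 table, made in GeneSpring GX with a floor of 1.0 and scaling to the 75th percentile of the array; its column medians are −5.21 (parental) and −5.45 (#BEB1), and its values are not centred per gene.

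Here, from 44397 features, 43020 non-control spots of 39429 probes were floored and scaled in the same way from the scanner output, and spots of a probe were averaged. A probe was well above background where most of its spots carried that mark (19480 on array A, 19659 on array B). A gene's value is the mean over its probes well above background on both arrays. With 1 array per line no test was run, and 2-fold is a size. The precision is limited by the number of arrays. Names are those of the array design, which can be old. All 9 platelet genes were named, and of each other list the largest differences past 2-fold, the largest bounds and some genes near 0. Some genes of these lists are not reported here. The genes and lists were chosen with earlier results of these data known. Alternatives were other scalings, normexp correction (offset 50), other filters, a floor of 5.0, other summaries over probes, the deposited table, naming by RefSeq accession and a 3-fold threshold. The scaling and summary steps were tested on simulated data in which only genes bright on both arrays were changed. Low signals and the bounds were not tested there. Python 3.11.15 (numpy 2.4.6, pandas 2.3.3, matplotlib 3.10.9) and R 4.3.3 with limma 3.58.1 were used.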

Additional observations from a re-analysis of the deposited data

How the results depend on the processing

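Of the 9 genes, 6 were past 2-fold towards array B as reported, 3 when each array was scaled to its median and 3 at a 3-fold threshold, and the count on array A stayed at 0 in each alternative. Of all measured genes, 7.31% were past 2-fold towards array B as reported and 3.96% under median scaling. Shares towards array A were 3.84% and 8.86%. No share over all genes is given at 3-fold, so nothing is read from that count. The median difference of the measured genes, −1.21 as reported, was −0.92 under median scaling and −2.75 where probes well above background on at least 1 array entered, which adds Gp1ba, Itgb3 and Ppbp at their surrogate or dim signals. The share of all measured genes at least 2-fold apart, 11.2% as reported, was 7.37% after normexp correction and 18.2% under that looser filter. Of the calls, 65.5% lay on array B as reported, 30.9% under median scaling, 73.8% with the percentile taken over detected probes and 58.2% under quantile scaling, so the balance between the arrays depends on the scaling. None of the differences of the 6 genes changed sign under any alternative. For Gp1ba, Itgb3 and Ppbp this was fixed wherever they were seen on array B alone, since a bound cannot change sign. Of 72 recomputed values 63 moved by less than the error of the spots and 9 by more. That error was 1.44 for Gp1ba and 1.45 for Itgb3, most of it from surrogate spots on array A. For these genes only large moves counted, and Itgb3 fell under 2-fold without being counted as moved. Of 264 list counts, 241 stayed within 1.5 times and 23 did not. No paired analysis was possible because each cell line had 1 array. Depth in the sense of signal over background limits Gp1bb, Gp5, Vwf and Itgb3, whose spots lay at or near it.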

Other observations

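The nearest protein-coding genes beside the other platelet genes, as ordered in the RefSeq table of GRCm38.p6, were also read. Ccdc48 (now Efcc1), beside Gp9, was seen on array A alone at 84.6 against 16.4, at least 2.65-fold brighter there, and Rab43 on its other side was at 468 on array A and 522 on array B, a difference of −0.64. Fam171a2, beside Itga2b, was seen on array B alone at 79.1 against 39.4, a plain ratio of 2.80-fold after scaling. Gpatch8, on the other side of Itga2b, differed by 0.08. Slc25a11, beside Gp1ba, was at 28377 and 31113, a difference of −0.61. Tbx1, beside Gp1bb, was at 65.7 and 116, a difference of −1.30, and Sept5, which overlaps Gp1bb, was not well above background on either array. Myl4, beside Itgb3, was at 73.1 and 42.8, a difference of 0.29, and the neighbours of Vwf, Cd9 and Ano2, were not well above background.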
